A study of Mus musculus with 8 samples.

Results

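Mouse embryonic stem cells (ESC) and expanded potential stem cells (EPSC) were each sequenced without and with T0901317 (T09), and the data set described is the gene-by-gene difference between the T09 responses of the 2 states. For each gene, the log2 ratio of the T09-treated over the untreated library was formed in ESC and in EPSC after library scaling, and the EPSC ratio was subtracted from the ESC ratio. This value is called the difference below, and it is positive where the T09 ratio was higher in ESC. A gene entered when at least 1 library of each pair held 20 counts or more, which left 12944 of 24888 genes in 4 of the 8 libraries of the series.

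All 4 libraries came from the E14 mouse ESC line. ESC were grown in a serum medium with LIF, the GSK3 inhibitor CHIR99021 and the MEK inhibitor PD0325901. EPSC were the same line after 5 passages in a knockout serum replacement medium that kept these 3 agents and added JNK Inhibitor VIII, SB203580, A-419259 and XAV939. The treated cultures had 3 days of T09. Its dose appears in the labels as 1 uM/mL, so the molar concentration is not known. A vehicle for the untreated libraries is not given in the sources used here, no change of genotype is stated, and cell state cannot be told apart from its medium. Each group was 1 library of 1 culture, so no difference could be set against the spread between cultures and no p-value is given. Each 95% interval is an exact conditional interval that covers counting error only, because it rests on the counts of 1 culture per group. Reads that carry no molecular identifier may be copies of 1 molecule, which would make these intervals too narrow.

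T09 is a small molecule made to activate the liver X receptors (LXR). These nuclear receptors bind oxysterols and, paired with RXR, switch on genes of cholesterol export and fatty acid synthesis. Cholesterol synthesis itself is governed by SREBP2, which is released when membrane sterol falls. Immediate-early genes are transcribed within minutes of a signal, often through ERK or p38 kinases, and hypoxia-response genes are transcribed when the HIF proteins are stable, in low oxygen or when prolyl hydroxylases are blocked.

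Total counts were 33923249 in ESC, 36835100 in treated ESC, 38187665 in EPSC and 40781415 in treated EPSC, and a count of 0 allowed a level of up to 0.0741 to 0.0904 CPM. The TMM scaling factors lay between 0.973 and 1.000, and the 20 most counted genes took 6.73 to 7.31% of counts. Abcg1, a direct LXR target, was high in both libraries labelled T09 (values below). The state labels have no such check here. Cdx1, picked after its values were seen because it separates the states, was at 87.6 and 111 CPM in the ESC libraries and at 0.445 and 0.741 CPM in the EPSC libraries. The 12 pluripotency markers summed to 7798 CPM in ESC, 7632 in treated ESC, 5260 in EPSC and 5857 in treated EPSC. Primitive endoderm markers summed to 225, 216, 420 and 271 CPM in the same order, and trophectoderm markers to 166, 194, 127 and 146 CPM. Lama1 and Lrp2 made up most of the primitive endoderm sum in every library, and Tfap2c and Tead4 most of the trophectoderm sum. These sums therefore say little about the other members. The 10 fibroblast markers summed to 224, 200, 343 and 405 CPM, most of it Vim, which stem cells also express. Of them Col3a1 and Dcn were at 0 counts in all 4 libraries, and Acta2 had 17, 5, 738 and 257 counts. What part these markers had in the differences was not tested. In bulk RNA, fewer cells of a type and less RNA per cell cannot be told apart.

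Of the 12944 genes, 694 (5.36%) had a called difference, meaning at least 2-fold (1 on the log2 scale) with an interval that excluded 0. The ratio was higher in ESC for 421 (3.25%) and lower in ESC for 273 (2.11%). The median difference over all genes was 0.01, and the 5th and 95th percentiles were -0.67 and 0.82. Most genes moved little in either state: 12235 (94.5%) had neither ratio past 2-fold with an interval excluding 1. In ESC 146 genes were past 2-fold upward (1.13%) and 256 downward (1.98%), and in EPSC 88 upward (0.68%) and 289 downward (2.23%). For 431 genes (3.33%) 1 state was past 2-fold and the other lay between that and no change. Of the called genes 335 (48.3%) had under 100 counts in every library, and among the 5822 genes with at least 1000 counts in every library only 17 were called higher in ESC and 2 lower.

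Opposite movement, with at least 2-fold in each state, was seen in 36 genes. Up in ESC and down in EPSC were 25 genes (0.193%), and down in ESC and up in EPSC were 11 genes (0.085%). The first set held 4 members of the immediate-early list, 3 of the hypoxia list, 1 of the glycolysis list and 1 snoRNA gene. The second held 2 snoRNA genes, 1 microRNA gene and 5 predicted or unnamed genes. Of the 36, 15 reached 100 counts in at least 1 library. Movement in the same direction in both states was seen in 11 genes up (0.085%) and 23 genes down (0.178%), and the 11 included Abca1, Abcg1, Mylip, Srebf1, Scd1, Scd2, Scd3, Crb3, Igip and Krtcap3, of which the last 3 lay outside the naming rule and were picked after their values were seen. Movement in ESC only, with the EPSC ratio at most 25% above or 20% below 1, was seen in 108 genes, 37 up (0.286%) and 71 down (0.549%). Movement in EPSC only was seen in 100 genes, 20 up (0.155%) and 80 down (0.618%).

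**Figure D1:**
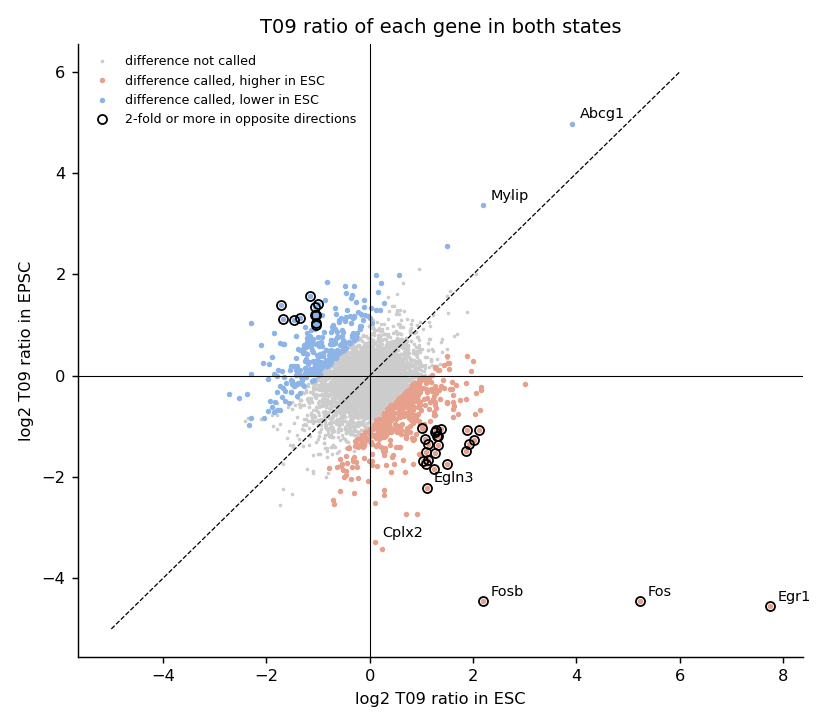
Log2 T09 ratio of each of the 12944 genes in ESC (horizontal axis) and EPSC (vertical axis), 1 library per group; the dashed line marks equal ratios. Egr1, Fos and Fosb sit alone at the lower right, with ESC ratios of 7.75, 5.24 and 2.20 and EPSC ratios near -4.5, while Abcg1 and Mylip rose in both states and lie above the dashed line.

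The immediate-early genes Egr1, Fos and Fosb had larger differences than any other gene named here, while 16 of the list's 27 measured members were not called. Of 27 measured members of 32 on the list, 11 were called higher in ESC and 0 lower, beside 3.25% of all genes called higher, and 21 of 27 had a difference above 0, beside 51.8% of all genes. Their median T09 ratio was 0.39 in ESC and -0.22 in EPSC on the log2 scale, with a median difference of 0.58 (0.23 at a minimum of 500 counts). By sign alone, 15 had a positive ratio in ESC and a negative one in EPSC.

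Egr1, a zinc-finger transcription factor induced by ERK signalling, stood at 0.362 CPM (12 counts) in ESC, 89.9 in treated ESC, 72.2 in EPSC and 3.04 in treated EPSC. Its log2 ratio was 7.75 in ESC and -4.55 in EPSC, a difference of 12.29 (11.55 to 13.97). Treated ESC and untreated EPSC were thus the 2 high libraries, and the other two were low. Fos, an AP-1 subunit, was at 0.543, 22.5, 28.7 and 1.26 CPM in the same order of libraries, a difference of 9.69 (9.06 to 10.80). Fosb, its close relative, was at 0.241, 1.31, 5.50 and 0.198 CPM, a difference of 6.65 (5.62 to 8.95). All 3 genes had the crossed pattern, with both of 1 diagonal pair at least 2-fold above both of the other pair. It was found in 12 called genes in all, 8 with treated ESC and untreated EPSC high and 4 with the other diagonal high.

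Other AP-1 and early-response genes had smaller differences of the same sign. Maff, a small Maf transcription factor, was at 2.92, 7.20, 5.08 and 2.40 CPM, with ratios of 1.28 and -1.07. Dusp1, a phosphatase that switches off MAP kinases, was at 21.5, 40.0, 23.5 and 19.5 CPM, a difference of 1.16 (0.97 to 1.36). Treated ESC was its highest library, with neither ratio past 2-fold. Jund, an AP-1 subunit that is expressed at rest, was at 110, 172, 315 and 237 CPM, a difference of 1.06 (0.99 to 1.13). The other called members were Ier3, Fosl2, Dusp5, Nr4a2 and Jun, with differences of 1.68, 1.57, 1.52, 1.21 and 1.07, and Fosl2 and Nr4a2 rested on at most 56 counts in a library. Egr2 did not reach the minimum in both pairs and had 1, 18, 50 and 0 counts, and Fosl1, also below it, had 9, 2, 3 and 8. Egr3, Nr4a3 and Npas4 had at most 7 counts.

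Not all early genes moved with Egr1. Ier2, Junb, Nr4a1, Arc and Klf10, which were well counted, had differences of 0.49, 0.17, 0.16, 0.29 and 0.13. Srf, the factor that drives many early genes, had a difference of 0.06 (-0.07 to 0.18). Myc, a growth transcription factor, went the other way, at 13.2, 10.5, 8.40 and 12.5 CPM and a difference of -0.90 (-1.19 to -0.61).

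The feedback genes that FGF and ERK signalling induces did not have the sign of the immediate-early genes. Their 12 members had a median difference of -0.31, with 0 called in either direction and 4 of 12 above 0. Spry2, a brake on receptor kinases, was at 94.1, 88.7, 52.0 and 77.4 CPM, a difference of -0.66 (-0.77 to -0.55). Dusp6, the phosphatase for ERK, was at 6.90, 5.66, 32.4 and 41.9 CPM, a difference of -0.65 (-0.96 to -0.36). For both genes the ESC ratio was slightly below 0 and the EPSC ratio above 0, while Egr1 and Fos did the reverse.

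**Figure D2:**
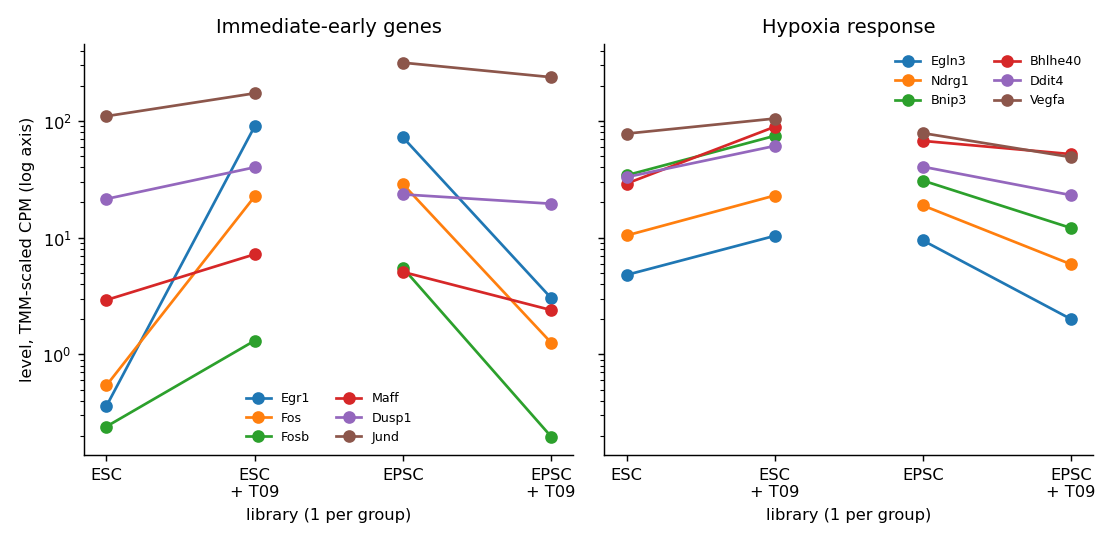
TMM-scaled level (CPM, log axis) of 6 immediate-early and 6 hypoxia-response genes in the 4 libraries, 1 point per library, lines joining the untreated and treated library of a state. Lines rise from ESC to treated ESC and fall from EPSC to treated EPSC for all 12 genes, most steeply for Egr1, Fos and Fosb.

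Hypoxia-response genes had higher T09 ratios in ESC. Of 24 measured members of 26, 11 were called higher in ESC and 0 lower, again beside 3.25% of all genes, and 23 of 24 differences were above 0. The median ratio was 0.57 in ESC and -0.41 in EPSC, a median difference of 0.78. By sign, 16 of the 24 were up in ESC and down in EPSC, and 3 (Egln3, Ndrg1 and Bnip3) were past 2-fold in both. By sign, Pdk1 (0.92 and 0.26), Ankrd37 (0.76 and 0.37), Slc2a1, Fam162a and Pfkfb4 had positive ratios in both states, and Ak4 and Car9 negative ones.

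Egln3, a prolyl hydroxylase that marks HIF for destruction and is itself a HIF target, was at 4.79 CPM in ESC, 10.4 in treated ESC, 9.45 in EPSC and 2.00 in treated EPSC. The ratios were 1.10 and -2.21, a difference of 3.31 (2.90 to 3.81), and treated EPSC was the lowest library. Ndrg1, a stress-induced gene of differentiating cells, was at 10.4, 22.9, 18.9 and 5.90 CPM, a difference of 2.80 (2.53 to 3.10). Bnip3, a mitochondrial protein that promotes mitophagy, was at 34.2, 74.4, 30.8 and 12.1 CPM, a difference of 2.47 (2.29 to 2.66). The 2 untreated libraries had nearly the same Bnip3 level, and treatment moved them apart.

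Bhlhe40, a transcriptional repressor, was at 29.0, 89.0, 67.4 and 51.9 CPM, so that most of its difference of 1.99 (1.86 to 2.13) came from ESC. Ddit4, an inhibitor of mTORC1, was at 33.0, 61.0, 40.5 and 23.1 CPM, a difference of 1.69 (1.54 to 1.85). Pfkfb3, which makes the activator of phosphofructokinase, had 633, 839, 534 and 271 counts and moved past 2-fold in EPSC only. Vegfa, the angiogenic growth factor, was at 77.7, 105, 78.5 and 48.9 CPM, a difference of 1.11 (1.00 to 1.22). The other called members were Stc2, P4ha2, P4ha1 and Egln1, with differences from 1.16 (Egln1) to 1.66 (Stc2). Kdm3a, a histone demethylase, was the 1 member below 0, at -0.26 (-0.32 to -0.21), and Car9, which had at most 37 counts, was at 0.18 (-0.92 to 1.33).

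The promoters of this list were read from the RefSeq table of build GRCm38.p6, which is not the build of the deposited counts, as windows from 250 bases before to 50 bases after the start. The HIF core motif ACGTG, on either strand, was present in 16 of 28 promoters (57.1%) of the 18 hypoxia genes with an entry. It was present in 6447 of 32851 promoters (19.6%) of all genes. In the immediate-early list it was in 8 of 24 promoters (33.3%), those of Maff and Dusp1 among them. The cAMP response element TGACGTCA was present in 3 of 24 promoters (12.5%) of 22 immediate-early genes, Btg2, Dusp1 and Maff, and in 1.79% of all promoters. For the serum response element only an exact sequence was searched, and it was in 0 of the 24, beside 0.0639% of all. Variant forms were not searched and the sequence is rare, so this does not tell whether these promoters hold the element. TGACGTCA and ACGTG share letters but neither contains the other. A match describes letters only and not a bound site. For Maff and Dusp1 only the cAMP element is set in capitals, and their ACGTG is left in lower case. The following are the 250 bases before the start for 3 hypoxia genes with large differences and for the 2 called immediate-early genes with the cAMP element, 5′ to 3′ along the gene's strand, with the motif in capitals. Egln3 lies on the minus strand at chr12:54203875-54204124 and its motif begins 229 bases before the start, Bnip3 on the minus strand at chr7:138909507-138909756 (108 bases, where overlapping matches on both strands make CACGTG) and Ddit4 on the minus strand at chr10:59951771-59952020 (187 bases). Maff lies on the plus strand at chr15:79347270-79347519 (29 bases) and Dusp1 on the minus strand at chr17:26508473-26508722 (143 bases).
Egln3: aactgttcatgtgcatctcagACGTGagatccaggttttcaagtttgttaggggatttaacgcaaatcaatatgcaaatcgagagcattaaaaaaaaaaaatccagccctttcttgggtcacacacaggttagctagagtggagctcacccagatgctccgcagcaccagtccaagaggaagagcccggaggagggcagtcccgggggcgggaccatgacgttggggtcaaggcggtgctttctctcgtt
Bnip3: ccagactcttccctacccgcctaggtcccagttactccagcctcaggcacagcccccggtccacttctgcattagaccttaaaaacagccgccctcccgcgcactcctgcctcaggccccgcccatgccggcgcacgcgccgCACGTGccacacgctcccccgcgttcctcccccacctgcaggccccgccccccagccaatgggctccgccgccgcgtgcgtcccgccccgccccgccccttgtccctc
Ddit4: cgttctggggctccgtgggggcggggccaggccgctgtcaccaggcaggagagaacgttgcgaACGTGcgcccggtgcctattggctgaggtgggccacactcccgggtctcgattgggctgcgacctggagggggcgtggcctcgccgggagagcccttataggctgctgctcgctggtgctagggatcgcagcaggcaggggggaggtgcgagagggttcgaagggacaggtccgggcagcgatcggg
Maff: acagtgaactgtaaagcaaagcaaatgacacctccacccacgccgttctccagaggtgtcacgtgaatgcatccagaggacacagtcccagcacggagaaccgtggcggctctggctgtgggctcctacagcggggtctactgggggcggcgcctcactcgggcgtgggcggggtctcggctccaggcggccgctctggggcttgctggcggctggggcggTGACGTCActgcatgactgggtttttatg
Dusp1: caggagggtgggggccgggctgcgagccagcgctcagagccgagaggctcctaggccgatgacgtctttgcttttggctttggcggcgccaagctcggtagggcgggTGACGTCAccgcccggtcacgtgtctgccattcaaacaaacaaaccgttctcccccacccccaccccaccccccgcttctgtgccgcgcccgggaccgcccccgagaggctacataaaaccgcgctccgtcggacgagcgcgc

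Glycolysis genes had differences of the same sign as the hypoxia list, with median ratios of 0.46 in ESC and -0.10 in EPSC. All 16 measured members of 17 had a difference above 0 (median 0.65), or 15 of 16 with median-of-ratios scaling, where Gapdh changed sign. Of the 16, 2 were called higher, beside 3.25% of all genes, and 12 were up in ESC and down in EPSC by sign. Slc16a3, the lactate exporter, was at 93.1, 197, 37.9 and 15.9 CPM, a difference of 2.33 (2.19 to 2.49). Aldoc, a brain-type aldolase, was at 7.81, 25.7, 8.17 and 4.79 CPM, and treated ESC alone was high. Among the abundant enzymes the differences were 0.89 for Tpi1, 0.77 for Ldha, 0.68 for Pgk1, 0.37 for Pkm and 0.02 for Gapdh. These ratios were within 2-fold in both states. Ndufa4l2, a HIF-induced mitochondrial protein outside the lists, was at 3.13, 12.1, 2.91 and 1.11 CPM, a difference of 3.27 (2.72 to 3.95). Ppp1r3b, which ties a phosphatase to glycogen, was at 4.85, 12.3, 6.47 and 2.47 CPM, a difference of 2.70 (2.29 to 3.17). Eno1, the enolase of most cells, was listed at 0 counts in all 4 libraries, and nothing is read from it.

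**Figure D3:**
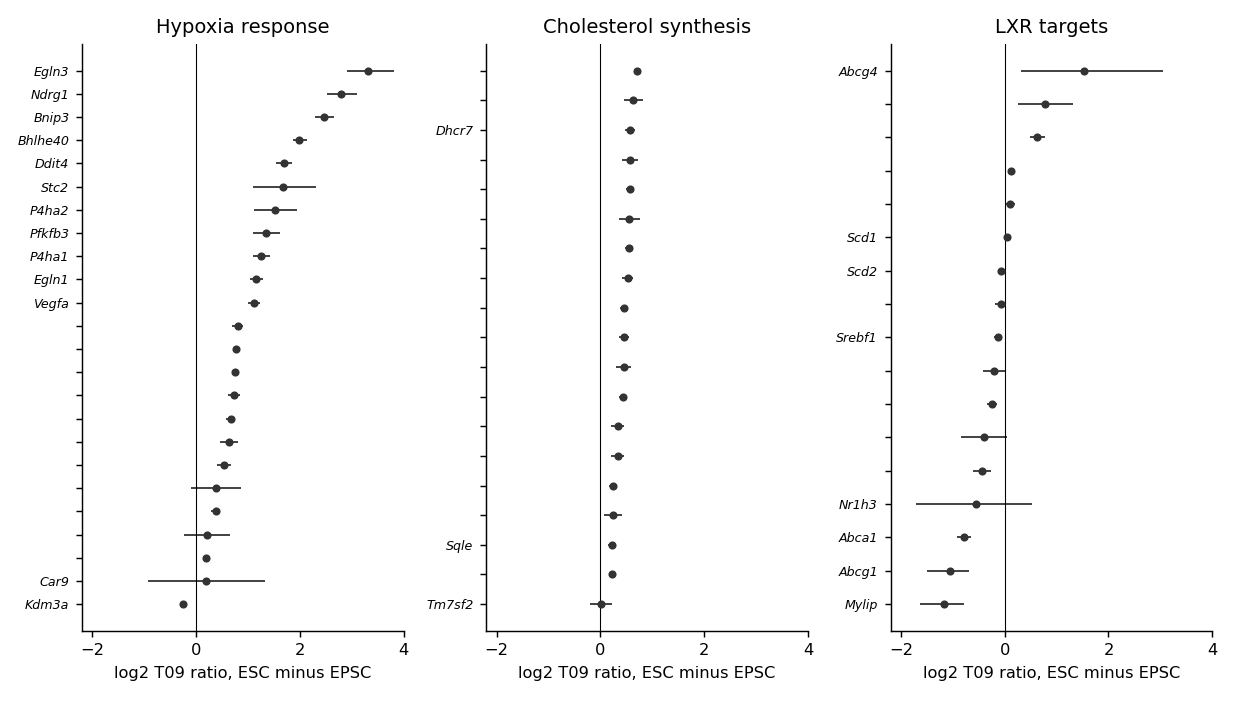
Difference of log2 T09 ratios (ESC minus EPSC) for every measured member of 3 lists, with 95% intervals for counting error. Names are printed beside some members only. Hypoxia members spread from -0.26 to 3.31, cholesterol synthesis members lie above 0 (Tm7sf2 is below 0 with median-of-ratios scaling), and LXR targets lie on both sides of 0.

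Abca1, Abcg1, Mylip, Srebf1, Scd1 and Scd2, all on the LXR target list, rose past 2-fold in both states. Among all measured members of the list, 6 rose past 2-fold in ESC and 8 in EPSC. The ratio was below 0 for 4 members in each state, and Mlxipl and Ttc39b were below 0 in both. Of 17 measured members of 21, 2 were called lower in ESC and 1 higher, beside 2.11% and 3.25% of all genes. The median difference of the list was -0.12. Abcg1, a sterol exporter, was at 6.72 CPM in ESC, 103 in treated ESC, 1.86 in EPSC and 60.2 in treated EPSC, with ratios of 3.92 and 4.98. Mylip, a ubiquitin ligase of lipid metabolism, was at 6.36, 29.4, 1.83 and 19.5 CPM, a difference of -1.17 (-1.63 to -0.78). For both genes the treated EPSC level stayed below that of treated ESC, and it was the lower untreated EPSC level that made the EPSC ratio the larger one.

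Abca1, the exporter that loads cholesterol onto apolipoprotein, followed the same pattern at 51.0, 340, 18.3 and 211 CPM, with a difference of -0.79 (-0.93 to -0.66). Srebf1, the driver of fatty acid synthesis, had nearly the same ratio in both states, 1.55 and 1.67. Scd1 and Scd2, the fatty acid desaturases, had differences of 0.05 (-0.0047 to 0.11; -0.013 when centred on transcript length) and -0.07 (-0.10 to -0.04). Scd3, another desaturase, had 26, 83, 30 and 199 counts, a difference of -1.06 (-1.98 to -0.17), and was the 1 called member of 19 fatty acid synthesis genes, whose median ratios were 0.57 and 0.29 and whose median difference was 0.20, or 0.07 when centred on transcript length. The Scd genes are similar in sequence, so how their reads were divided is uncertain. Abcg4, a sterol exporter of neural cells, was called higher on 14 to 31 counts, with a difference of 1.52 (0.32 to 3.05). Of the receptors themselves, Nr1h2 (LXR beta) had a difference of -0.06 (-0.17 to 0.05) and Nr1h3 (LXR alpha) one of -0.55 (-1.71 to 0.53) on 26 to 37 counts.

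On the sterol-supply side most differences were above 0. Those of Abca1, Abcg1, Mylip and Scd3 were below 0, but the LXR target list was mixed. Of its 17 measured members 11 were below 0 and 6 above, Pltp (0.62) and Arl4c (0.77) among the 6. All 19 measured cholesterol synthesis genes of 20 had a difference above 0 (18 with median-of-ratios scaling, where Tm7sf2 was at -0.01), with a median ratio of 0.41 in ESC and -0.03 in EPSC, and 0 of 19 were called, so each gene's shift was below 2-fold. Dhcr7, the last enzyme before cholesterol, was at 74.5, 127, 104 and 119 CPM, a difference of 0.57 (0.48 to 0.67). Sqle, which makes squalene epoxide, had the smaller difference of 0.22 (0.15 to 0.30), and Tm7sf2 had 0.01 (-0.20 to 0.22).

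Regulators of uptake gave similar values, with 9 of 10 sterol uptake and control genes above 0 (median 0.42) and 0 called. Stard4, a sterol carrier, was at 76.0, 103, 86.3 and 71.6 CPM, a difference of 0.71 (0.61 to 0.81). Insig1, which holds SREBP in the endoplasmic reticulum, was at 106, 150, 109 and 104 CPM, a difference of 0.57 (0.48 to 0.66). For Stard4 and Insig1 the treated ESC library was higher than the untreated one, and the EPSC pair was level or slightly lower. Hmgcs1 had no matching symbol and was not analysed here. The sterol regulatory element TCACNCCAC was in 0 of 17 promoters of 14 cholesterol synthesis genes, beside 1.24% of all promoters. Other forms of the element were not searched and this sequence is rare. The 0 therefore does not tell whether these promoters hold the element.

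**Figure D4:**
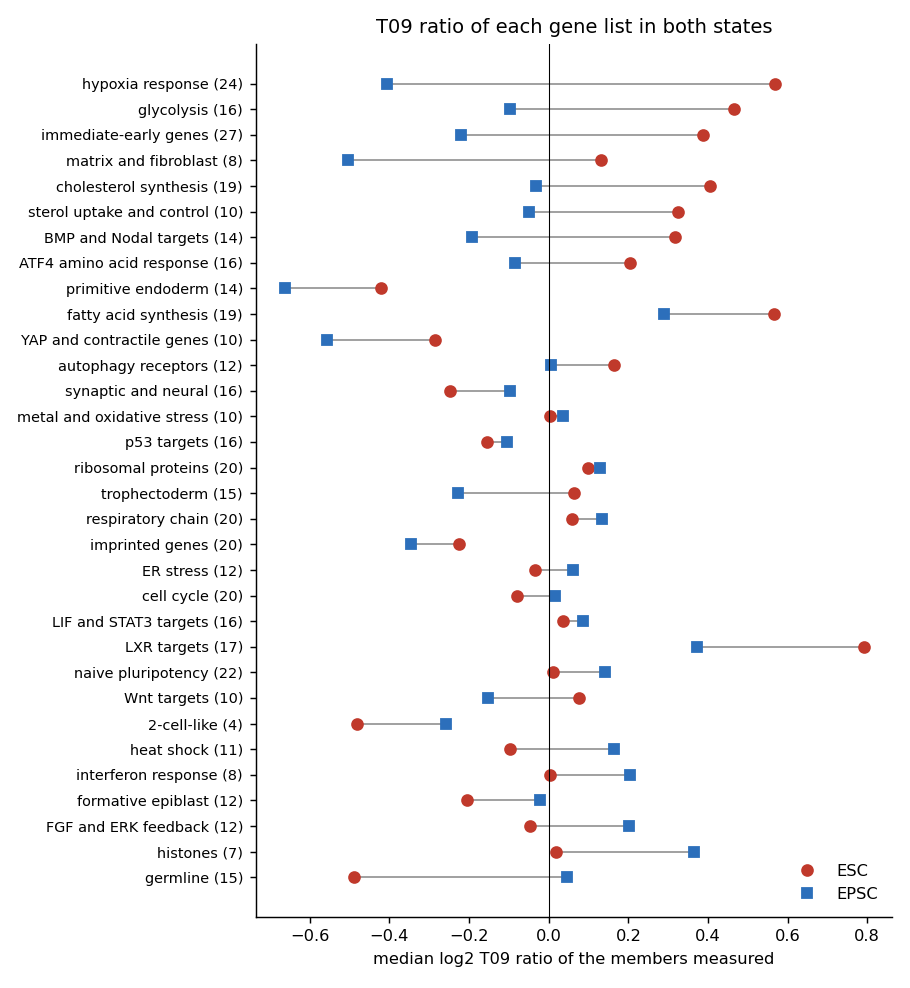
Median log2 T09 ratio in ESC (circles) and EPSC (squares) for the 32 lists with at least 3 measured members (number in brackets), ordered by the median difference. The circle lies right of 0 and the square left of 0 for hypoxia, glycolysis, immediate-early, cholesterol synthesis and Nodal lists. The same holds for sterol uptake and control, trophectoderm, Wnt target, matrix and fibroblast and ATF4 lists. Both lie right of 0 for LXR targets and fatty acid synthesis. That is also so for naive pluripotency, LIF and STAT3, respiratory chain, ribosomal protein, histone, interferon, autophagy receptor and metal and oxidative stress lists.

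Nodal and BMP targets included 4 called higher of 14 and 0 lower, beside 3.25% and 2.11% of all genes. Lefty1 and Lefty2, secreted Nodal antagonists that Nodal itself induces, were at 17.7, 22.4, 135 and 71.1 CPM and at 175, 262, 109 and 63.4 CPM. The differences were 1.26 (1.09 to 1.43) and 1.36 (1.28 to 1.45), and both genes fell short of 2-fold within a state. Bmp4, a BMP ligand, had similar ratios of 1.03 and 0.91, and Id1, a BMP target, had a negative difference of -0.48 (-0.78 to -0.19). Of 10 YAP and contractile genes, Ctgf (20.0, 18.2, 25.3 and 9.51 CPM) and Tagln were called higher, each through a fall in EPSC.

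Naive pluripotency genes differed little in the median, and some members differed more. The 22 naive genes had a median difference of -0.13 with 1 called lower, Gbx2, a homeobox gene downstream of LIF, at 21.4, 17.5, 15.8 and 27.9 CPM. Pou5f1, Sox2, Nanog and Esrrb had differences of -0.12, -0.14, -0.22 and -0.11. Dppa2 was at -0.91 (-0.99 to -0.83) and Zfp42 at -0.42 (-0.46 to -0.39), neither called. By sign, 6 of the 22, these 2 among them, were down in ESC and up in EPSC, and 1 was the reverse. Socs3, the feedback inhibitor of LIF signalling, was at 101, 139, 64.5 and 169 CPM, with ratios of 0.47 and 1.38 and a difference of -0.92 (-1.01 to -0.82). Of 16 LIF and STAT3 targets 2 were called lower, Gbx2 and Pramel7 (median -0.11, or -0.28 when centred on transcript length). Of 12 formative epiblast genes 1 was called lower, Lef1, with 9 to 55 counts (median -0.31). Over all genes 2.11% were called lower.

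Lineage genes were called in both directions, beside 3.25% of all genes called higher and 2.11% lower. Of 14 primitive endoderm genes 1 was called higher and 1 lower (median 0.25). Of 15 trophectoderm genes 2 were called higher and 2 lower (median -0.03). Gata4, a primitive endoderm factor, was at 2.77, 5.52, 5.58 and 3.71 CPM, a difference of 1.56 (1.10 to 2.07). Mttp, which loads lipid onto apolipoprotein B, was called lower at -1.12 (-1.92 to -0.46), and the primitive endoderm list as a whole had negative median ratios in both states, -0.42 and -0.66. Krt8, an epithelial keratin, was at 15.1, 23.2, 8.35 and 5.11 CPM and was called higher, whereas Gata3, a trophectoderm factor, was at 3.23, 0.614, 5.71 and 3.19 CPM and was called lower.

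Germline genes had a median difference of -0.45 over 15 measured members, with 4 called lower (Asz1, Tex101, Smc1b and Slc25a31) and 0 higher, beside 2.11% and 3.25% of all genes. Slc25a31, a sperm ADP/ATP carrier, had 31, 7, 235 and 237 counts, and Asz1, a piRNA pathway gene, had 22, 10, 288 and 322 counts. In both the ESC level was low, and only the ESC pair changed. Of 20 imprinted genes 2 were called higher (H19 and Igf2) and 2 lower (Mirg and Dlk1), with a median of -0.06. Centred on transcript length, as described below, Igf2 was at 0.95 and no longer called, which left 1 called higher and 4 lower. The non-coding transcripts of the Dlk1-Dio3 domain had differences of the same sign. Mirg, a microRNA host transcript, was at 14.1, 10.1, 7.99 and 17.0 CPM, called lower at -1.56 (-1.85 to -1.28). Meg3 and Rian had differences of -0.91 (-0.99 to -0.83) and -0.92 (-0.99 to -0.85), with EPSC ratios of 0.72 and 0.74. The protein-coding Dlk1 of the same domain fell in ESC, with a ratio of -1.86 beside -0.71 in EPSC. H19, a non-coding growth-linked transcript, had 141, 344, 522 and 297 counts, a difference of 2.06 (1.71 to 2.43).

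Several genes that rose in ESC only reached the level of EPSC. Slfn9, a Schlafen family gene, was at 7.63 CPM in ESC, 29.7 in treated ESC, 32.6 in EPSC and 34.7 in treated EPSC. Prrx2, a homeobox gene, was at 0.784, 3.68, 4.19 and 3.46 CPM, and Krt17, a keratin, at 1.72, 7.03, 9.09 and 11.1 CPM. In these genes untreated ESC was the 1 low library, a pattern found in 28 of the 421 genes called higher. Vax2, Nxph4 and Gpr20 had the same pattern, with differences of 1.72, 2.37 and 3.16. Of the 71 that fell in ESC only, Aass, a lysine-degrading enzyme, was at 16.5, 5.97, 18.7 and 21.5 CPM, and Xlr3c, an X-linked multicopy gene, at 44.6, 19.9, 40.4 and 44.1 CPM. Treated ESC alone was low in 38 of the 273 genes called lower. Reads of Xlr3c, Slfn8 and Slfn9 could be shared with close relatives, so their counts are uncertain.

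Movement in EPSC only was mostly downward, and treated EPSC alone was low in 58 of the 421 genes called higher. Cplx2, which regulates synaptic vesicle fusion, had 30, 35, 56 and 4 counts, and Dlg4, the postsynaptic scaffold PSD-95, had 61, 53, 60 and 11. Flrt1, a neuronal adhesion protein, had 82, 86, 103 and 24 counts. Mbp, a myelin protein, was at 3.26, 3.57, 8.09 and 2.32 CPM, so untreated EPSC was the 1 high library. Hymai, a non-coding imprinted transcript, had 99, 127, 21 and 0 counts. Against a floor of 3 counts in treated EPSC its difference was 3.14, and the lower bound of its interval was 2.66. Of the 20 that rose in EPSC only, C1s1, a complement protease, was at 3.86, 4.66, 1.44 and 4.00 CPM and Muc1, a membrane mucin, at 4.49, 4.07, 3.12 and 6.77 CPM.

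The 10 genes lower in ESC with the interval furthest from 0 included both well and thinly counted ones. Dancr, a non-coding RNA that hosts snoRNAs, was at 16.8, 8.68, 9.24 and 14.7 CPM, a difference of -1.61 (-1.90 to -1.33). Prss42, a testis serine protease, was at 7.50, 3.40, 3.04 and 5.76 CPM. Serpina3m and Cyp2b23 were higher in EPSC at the start (31.1 and 50.8 CPM) and fell in ESC, with differences of -2.19 and -1.79. Snora16a had 95, 39, 39 and 94 counts and Snora69 had 38, 11, 8 and 26, the crossed or near-crossed order opposite to that of Egr1.

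SnoRNA genes, a class looked at after these values were seen, included 12 of 42 called lower (28.6%) and 4 called higher (9.52%). Over all genes 2.11% were called lower and 3.25% higher. The median difference of the snoRNA genes was -0.50. Their median ratio was -0.05 in ESC and 0.36 in EPSC. SnoRNA genes lie inside introns of host genes and are far shorter than messenger RNAs, and how reads of host and guest were divided is not given in the sources used here. Among the genes with the shortest transcripts (the first of 10 bins) 4.57% were called lower, and the part of length in the snoRNA values was not tested. Snord64, with 3, 21, 54 and 35 counts, and Snord45b, with 17, 48, 33 and 14, went against the class.

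Transcript length moved with the T09 ratio in EPSC. Over 10 equal bins of the longest annotated transcript (12854 genes with a length), the median EPSC ratio fell from 0.15 in the shortest bin (median 1021 bases) to -0.29 in the longest (8275 bases). In ESC the bins ran only from 0.07 to -0.02, so the median difference ran from -0.08 to 0.28. Centring each library pair on its length bins left 393 genes called higher and 278 lower, of which 366 and 249 were called before, and 32 of the 36 opposite genes. The median difference was then 0.66 for immediate-early, 0.77 for hypoxia, 0.61 for glycolysis and 0.46 for cholesterol synthesis genes, beside 0.58, 0.78, 0.65 and 0.45 without centring. Centring did end calls among abundant genes: of the 17 called higher with at least 1000 counts everywhere, 6 stayed called (Dsp, Egln1, Jund, Lefty2, Vegfa and Zbed6). Ago2, Malat1, Foxo3, Lnpep, Myof and 6 others did not, and Ago2 went from 1.10 to 0.83. Of the 2 abundant genes called lower, Nefh stayed called and Mycn did not. Abca1, Meg3 and Rian became called lower, at -1.06, -1.18 and -1.19. What moved with transcript length in the EPSC pair was not tested further.

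**Figure D5:**
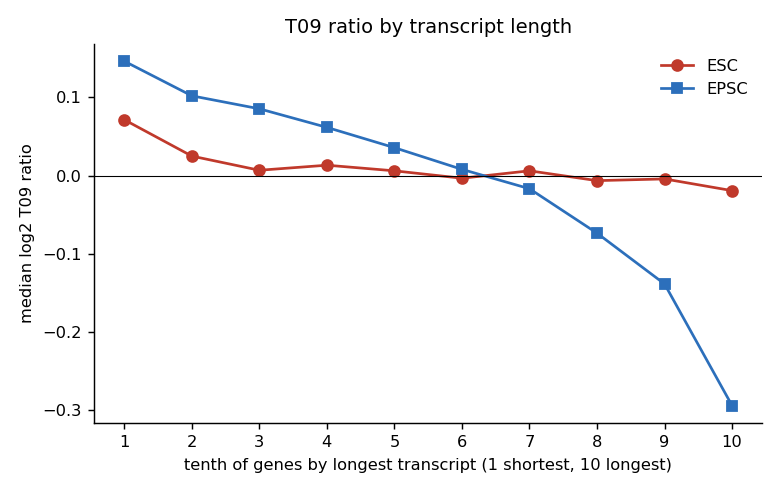
Median log2 T09 ratio of the genes in each of 10 bins of transcript length, from the shortest (1) to the longest (10), in ESC (circles) and EPSC (squares). The EPSC median falls from 0.15 to -0.29 with length and the ESC median stays between 0.07 and -0.02.

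The other lists differed in median and in calls. Over all genes 3.25% were called higher and 2.11% lower. Stress lists differed in sign: the 16 genes of the ATF4 amino acid response had a median of 0.28 with Nupr1 (1.46) and Vldlr (1.20, or 0.93 and not called when centred on length) called higher, and 10 of 11 heat shock genes were below 0 (median -0.26) with 0 called. Cell cycle, respiratory chain and ribosomal protein genes, 20 of each, had medians of -0.10, -0.05 and -0.02 and 0 calls. Interferon response, ER stress, p53, metal and oxidative stress and autophagy receptor genes had medians of -0.27, -0.09, 0.03, 0.03 and 0.10, also with 0 calls. Over 8 matrix and fibroblast genes the median was 0.56, with Thy1 and Pdgfrb called higher at 27 to 684 counts (Pdgfrb was at 0.97 and not called when centred on length). Of 16 synaptic and neural genes 3 were called higher (Cplx2, Syp and Gad1) and 1 lower (Pax6), and of 10 Wnt targets Nkd2 was called higher and Lef1 lower. The 2-cell-like list had 4 of 21 members measured, with Zscan4c called lower, and the mesoderm list 2 of 11, with Mixl1 called lower. Of 7 histone genes Hist1h1c was called higher and Hist1h1a lower (median -0.35). The Zscan4 and histone genes have near-identical copies, so their counts are uncertain.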

How the data were processed

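Raw counts per gene symbol were deposited by the authors as whole numbers for 8 libraries, of which 4 were compared. Per the submitters' processing notes the tools were STAR, HTSeq and Cuffnorm and the build was mm9; versions, annotation and strand setting are not given in the sources used here. Overlapping genes and near-identical copies are therefore uncertain.

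Counts were scaled with TMM factors over all 8 libraries (edgeR 4.0.16, R 4.3.3). Log2 ratios used a prior count of 2. With 1 library per group the design leaves 0 residual degrees of freedom, so differences carry exact conditional 95% intervals (noncentral hypergeometric) and single ratios Clopper-Pearson intervals. The procedure was tested on simulated counts. Against a count of 0, a floor of 3 counts in that library was used.

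Members and the 33 gene lists were chosen with earlier results of these data known. Named genes were the 10 with the interval bound furthest from 0 in each direction among genes with at least 50 counts in 1 library of each pair, up to 8 opposite genes and 6 genes moving in 1 state only per direction, up to 4 members of each list, and all members of 5 lists (immediate-early, hypoxia, LXR targets, fatty acid synthesis and cholesterol synthesis). Ranked sets left out genes with predicted or clone-type names. A few genes outside the rule were named after their values were seen: Cdx1, those with at least 1000 counts in every library, the snoRNA genes and further called list members. Transcript lengths were the longest per symbol in the reference annotation of a later build. A few genes are not reported here.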

Additional observations from a re-analysis of the deposited data

Results flagged for a closer look

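These genes had a T09 ratio past 2-fold in each state and in opposite directions. Each state was 1 pair of libraries, so the difference was not tested. Up in ESC and down in EPSC were Egr1 (12.29), Fos (9.69), Fosb (6.65), C1qtnf4 (3.34), Egln3 (3.31), Ndufa4l2 (3.27), Hhipl1 (3.24), Slfn8 (3.18), Ndrg1 (2.80), Ldlrad4 (2.79), Ppp1r3b (2.70), Bnip3 (2.47), Maff (2.35) and Slc16a3 (2.33), with the difference of log2 ratios in brackets. Down in ESC and up in EPSC were Snora69 (-3.12), Mir7079 (-2.80), Adam32 (-2.57), Snora16a (-2.49), Zxda (-2.42) and Maml2 (-2.27). C1qtnf4, Hhipl1, Ldlrad4, Snora69, Snora16a, Mir7079, Adam32, Zxda and Maml2 had under 100 counts in every library.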

How the results depend on the processing

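The counts of genes called higher in ESC, called lower in ESC, moving in opposite directions, moving in ESC only and moving in EPSC only were 421, 273, 36, 108 and 100. Median-of-ratios factors, total counts and a prior count of 0.5 left all of them within 1.5 times. With a minimum of 1 count the first 3 were 644, 471 and 64. With a minimum of 100 counts the 5 values were 152, 63, 11, 33 and 23, and with one of 500 counts, added after the data were seen, 50, 9, 5, 7 and 9. A threshold of 1.5-fold gave 1020, 612, 104, 367 and 326, and one of 4-fold gave 68, 35, 3, 5 and 7. Widening the interval for an assumed biological coefficient of variation of 0.2 gave 206, 112, 21, 45 and 39. With a prior count of 10, 10 genes moved in opposite directions and 56 in EPSC only. An edgeR likelihood-ratio fit with that assumed variation called 17 genes higher, all 17 among the 421, and 0 lower, with 227 and 136 at an unadjusted p under 0.05. Its 17 included Egr1, Fos, Fosb, Egln3, Ndrg1, Bnip3, Ndufa4l2, Aldoc, Ppp1r3b and Slfn8.

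Among list medians, that of histones changed sign at a minimum of 100 counts, to 0.068. At a minimum of 500 counts the median was 0.23 for immediate-early, 0.50 for glycolysis, 0.71 for BMP and Nodal, 0.23 for matrix and fibroblast, 0.093 for ATF4 and -0.18 for heat shock genes. Centring on transcript length, also added after the data were seen, moved fatty acid synthesis to 0.065, LIF and STAT3 targets to -0.28 and ribosomal proteins to 0.035. These minimums leave fewer genes measured. For the other changes the cause was not tested. Between the scalings the median difference of all genes ran from -0.01 to 0.02. No paired analysis was possible because each group holds 1 library. No culture was repeated, and 335 of the 694 called genes had under 100 counts in every library.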
